A study of Mus musculus with 9 samples.

Results

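The 38 genes described here mark the leukocytes of mouse liver, chosen by symbol from the deposited expression table: Kupffer cell, monocyte, neutrophil, antigen presentation and lymphocyte genes, 38 of the 51912 genes listed. The rule goes by gene name alone. Kupffer cells are the resident macrophages of the liver. They sit inside the sinusoids, the porous capillaries between plates of hepatocytes, and take up particles, dying red cells and lipoproteins from the blood. Monocytes that enter an inflamed liver can turn into macrophages with a different set of genes, and antigen presentation by MHC class II is shared by macrophages, dendritic cells and B cells.

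RNA had been sequenced from 9 livers, taken from fasted C57Bl/6 mice that all carried the *Apoe*-/- and *Ndst1* f/f alleles together with *Alb-Cre*+. Of these mice, 5 had received a murine apoC-III antisense oligonucleotide (ASO) and 4 a murine control ASO. Each ASO was given by intraperitoneal injection at 50 mg/kg/week for 8 weeks. The sex, age and diet of these mice are not given in the sources used here. *Apoe* was inactivated in every cell of these mice, macrophages included. *Alb-Cre* acts in hepatocytes, so leukocytes kept *Ndst1*, an enzyme of heparan sulfate synthesis. Every mouse received an oligonucleotide and there was no untreated group, so what both ASOs do to leukocytes cannot be seen in this comparison. Whole livers were measured, and fewer cells of a type and less RNA per cell cannot be told apart in them. P-values set group differences against the spread among these 9 livers.

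Values are rescaled TPM. TPM is a length-corrected share of a library with a fixed total, and a single noncoding RNA, 7SL, took 64.0% to 83.6% of it. The nuclear protein-coding genes, 1.94% to 8.64% of the TPM in a liver, were therefore set to a total of 1000000 in each liver and divided by median-of-ratios factors. TPM keeps no read depth, so depth is unknown and no counting error can be given for a single liver. Control ASO replicate 4 had the smallest protein-coding share and the lowest scaling factor. *Apoc3*, the target, was 450.3 ± 111 (SD, n = 5) against 3577 ± 492 (SD, n = 4), 87.4% lower, with no overlap of groups (exact two-sided permutation p = 0.0159, the smallest that 5 livers against 4 allow).

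None of the 38 genes was called as changed. A call required both a difference of more than 1.5-fold and an adjusted p below 0.05 in limma-trend, and 0.0167% of all 11953 genes tested met both. With a mean of at least 1 rescaled TPM, 25 of the 38 genes were tested and 13 were not. Of those 25, none reached an unadjusted p under 0.05 with limma-trend, against 5.56% of all genes (2.99% higher and 2.58% lower). An exact permutation test per gene put 1, *H2-Eb1*, under it, against 5.20% of all genes. In TPM as deposited, 6 members could be tested and none reached it, against 2.01% of all genes. No tested member had groups that did not overlap, against 1.84% of all genes (0.929% higher and 0.912% lower). Higher and lower refer here and below to the mean on the log2 scale of the test. It was higher in apoC-III ASO livers for 9 genes and lower for 16, with a median log2 fold change of −0.12 beside −0.0010 over all genes. Without median-of-ratios factors, where the median of all genes was 0.41, 22 of 27 tested members were higher. The differences ran from −0.89 (*S100a9*) to 0.69 (*Spi1*), and the lowest adjusted p was 0.878. For 15 of the 25 genes the 95% interval of the log2 fold change lay within 1 in either direction, and the other 10 intervals reached beyond 1. The fit is on log2(value + 1), which understates the change of low genes. For those, an interval within 1 does not exclude a doubling or a halving.

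**Figure D1:**
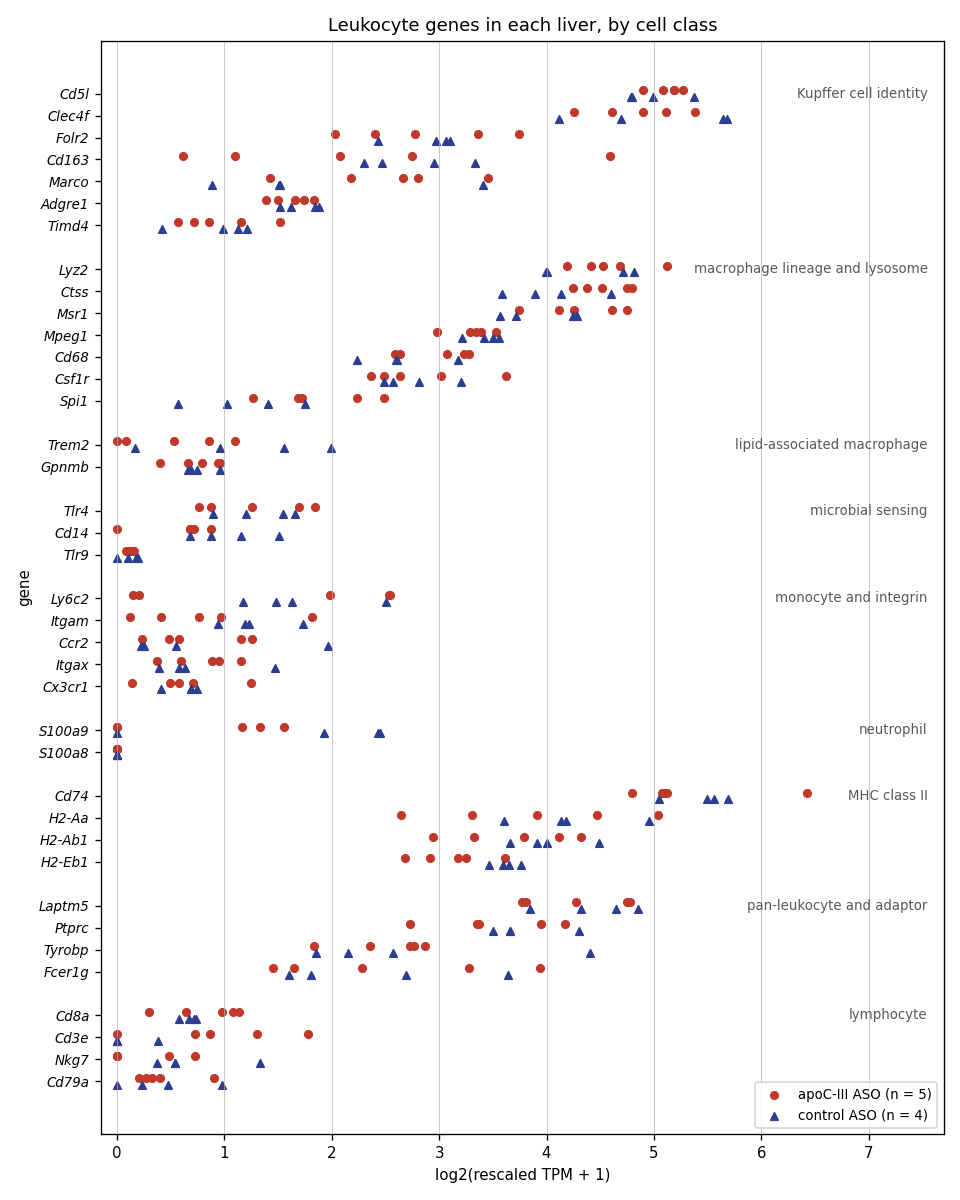
Level of each of the 38 genes in each liver as log2(rescaled TPM + 1), grouped by cell class, with red circles for the 5 apoC-III ASO livers and blue triangles for the 4 control ASO livers. The 2 groups overlap in every tested gene, and *S100a8* is at 0 in all 9 livers.

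A mean of at least 10 rescaled TPM was reached by 10 of the 38 genes: *Cd74*, *Cd5l*, *Clec4f*, *Lyz2*, *Laptm5*, *Ctss*, *H2-Aa*, *Msr1*, *H2-Ab1* and *Ptprc*, in that order of level per length. Hepatocyte transcripts stood far above them, with *Alb* at 23019 ± 10603 (SD, n = 5) against 23852 ± 2937 (SD, n = 4). All of the Kupffer cell identity genes were above 0 in every liver. The neutrophil and lymphocyte members were low. Of these, *S100a8*, *S100a9*, *Cd3e*, *Nkg7* and *Cd79a* were listed at 0 in at least 1 liver, and *Cd8a* in none. Livers also differed among themselves. ApoC-III ASO replicate 5 had the highest value of the 9 livers for 8 of the 25 tested genes and the lowest for 1. ApoC-III ASO replicates 2 and 4 had the lowest value for 5 genes each and the highest for none.

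Of the Kupffer cell identity genes, 6 were tested, 2 with a higher and 4 with a lower mean on the apoC-III ASO, and none passed the test. *Cd5l*, which encodes a scavenger protein that tissue macrophages secrete, was at 37.6, 28.9, 35.5, 35.4 and 32.8 rescaled TPM in apoC-III ASO replicates 1 to 5 and at 26.5, 26.8, 40.4 and 30.8 in control ASO replicates 1 to 4. Its 9 livers lay within a 1.52-fold range, and the group difference was within that spread (log2 fold change 0.14, 95% interval −0.30 to 0.58, adjusted p = 0.966, by limma-trend with Benjamini-Hochberg adjustment over all genes tested). *Clec4f* encodes a C-type lectin found on Kupffer cells and hardly elsewhere in the mouse. Its levels were 40.8, 28.8, 23.4, 18.1 and 33.6 rescaled TPM on the apoC-III ASO and 24.9, 49.1, 50.1 and 16.4 on the control ASO. The control livers formed a high pair and a low pair that enclosed all treated livers (log2 fold change −0.18, 95% interval −0.96 to 0.59, adjusted p = 0.974 in limma-trend). *Adgre1*, the gene of the F4/80 antigen, was 2.10 ± 0.386 (SD, n = 5) against 2.30 ± 0.393 (SD, n = 4) rescaled TPM (log2 fold change −0.094, 95% interval −0.59 to 0.40). On the log2(value + 1) scale, which understates differences of low genes, it had the smallest SD within groups of all tested members. Its 9 livers lay within a 1.66-fold range, against 1.52-fold for *Cd5l* and 1.56-fold for *Mpeg1*.

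Larger spread was found for the scavenger receptors of these cells. *Marco*, a receptor for bacteria and modified lipoproteins, had the largest difference of the class. It was at 9.94, 1.68, 5.31, 3.53 and 5.98 rescaled TPM on the apoC-III ASO and at 1.87, 0.841, 9.59 and 1.85 on the control ASO. Control ASO replicate 3 reached the level of the highest treated liver, while the other 3 controls lay below 4 of the 5 treated livers (log2 fold change 0.67, 95% interval −0.45 to 1.80, adjusted p = 0.914 in limma-trend). Without control ASO replicate 3 the log2 fold change of *Marco* was 1.1997 (unadjusted p = 0.0172, adjusted p = 0.865 in limma-trend). *Cd163*, the receptor that clears hemoglobin bound to haptoglobin, was at 0.531, 3.21, 1.14, 5.72 and 23.1 rescaled TPM on the apoC-III ASO and at 3.93, 6.74, 9.06 and 4.54 on the control ASO. The highest and the lowest liver, 43.6-fold apart, both came from the apoC-III ASO group, and the log2 fold change of −0.54 had an interval of −1.99 to 0.91. The arithmetic mean pointed the other way, at 6.75 ± 9.39 (SD, n = 5) against 6.07 ± 2.34 (SD, n = 4). *Folr2*, a folate receptor of resident macrophages, was 6.98 ± 3.83 (SD, n = 5) against 6.54 ± 1.46 (SD, n = 4) rescaled TPM (log2 fold change −0.029, 95% interval −0.79 to 0.73). *Timd4*, a receptor for dying cells on long-lived Kupffer cells, was 1.01 ± 0.559 (SD, n = 5) against 0.957 ± 0.436 (SD, n = 4) and was not tested.

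**Figure D2:**
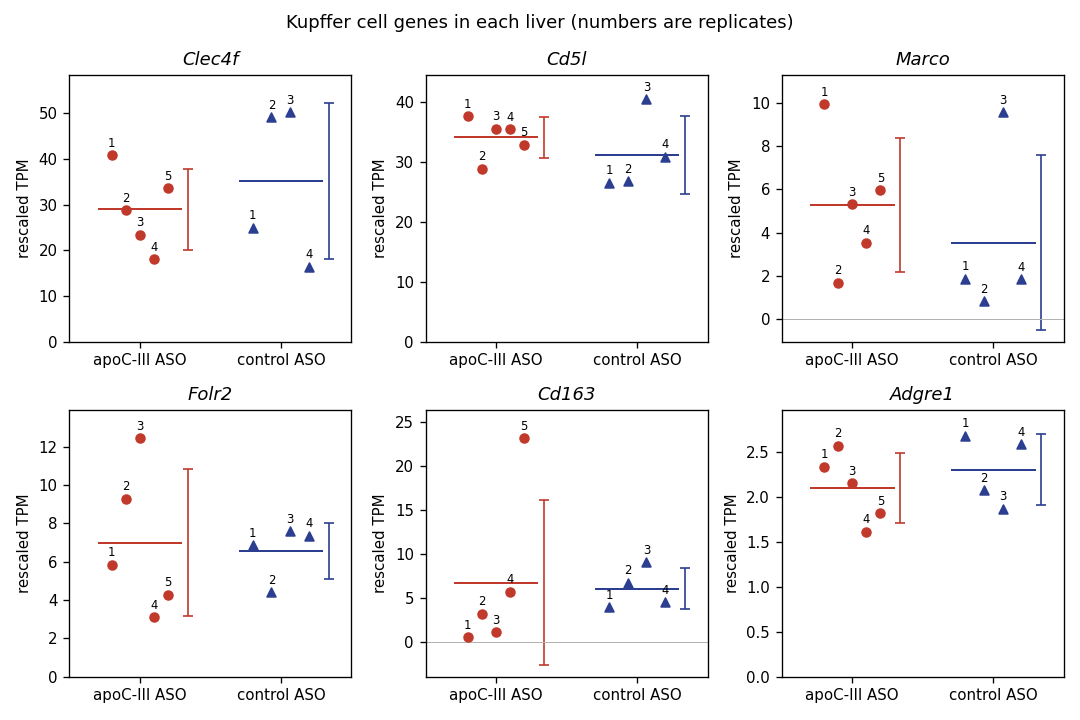
Rescaled TPM of 6 Kupffer cell genes in each liver, with the replicate number above each point, a line at the group mean and a bar of 1 SD (n = 5 and n = 4). *Cd5l* and *Adgre1* vary little, whereas *Cd163* and *Marco* each have 1 liver far above the rest of its group.

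Genes of the wider macrophage lineage and its lysosomes had the most members higher on the apoC-III ASO, 6 of 7, with a median log2 fold change of 0.31. None had an unadjusted p under 0.05. *Spi1* encodes PU.1, the transcription factor that macrophages and other myeloid cells need to form. It was at 1.40, 3.71, 4.61, 2.30 and 2.22 rescaled TPM on the apoC-III ASO and at 1.03, 2.37, 1.65 and 0.483 on the control ASO. The 2 highest livers were apoC-III ASO replicates 3 and 2, and the group ranges overlapped between 1.40 and 2.37 (log2 fold change 0.69, 95% interval −0.029 to 1.42, unadjusted p = 0.0584 and adjusted p = 0.882 in limma-trend, exact permutation p = 0.111). *Ctss* encodes cathepsin S, the protease that trims the invariant chain inside antigen-presenting cells. Its levels were 25.9, 18.0, 19.8, 21.95 and 26.9 rescaled TPM on the apoC-III ASO and 13.9, 11.0, 23.3 and 16.5 on the control ASO. All treated livers exceeded 3 of the 4 controls, and control ASO replicate 3 lay among the treated ones (log2 fold change 0.49, 95% interval −0.046 to 1.02, unadjusted p = 0.0696 and adjusted p = 0.883 in limma-trend).

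The p-values of these genes depended on how livers were scaled. Without median-of-ratios factors the median log2 fold change of all genes shifted to 0.41, and 11% of all genes had an unadjusted p under 0.05, *Spi1*, *Cd68* and *Ctss* among them. Relative to that median their log2 fold changes were 0.51, 0.31 and 0.53, with adjusted p = 0.450 in limma-trend for each.

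*Lyz2*, the lysozyme of macrophages and neutrophils, had the highest mean of the class. It was at 33.8, 17.3, 22.1, 24.8 and 20.3 rescaled TPM on the apoC-III ASO and at 14.9, 15.1, 27.1 and 25.2 on the control ASO, with overlapping ranges (log2 fold change 0.21, 95% interval −0.37 to 0.79, adjusted p = 0.957 in limma-trend). *Msr1*, the class A scavenger receptor for modified LDL, was 19.2 ± 5.43 (SD, n = 5) against 14.8 ± 3.92 (SD, n = 4) rescaled TPM (log2 fold change 0.34). *Cd68*, a lysosomal glycoprotein, was 6.95 ± 1.74 (SD, n = 5) against 5.47 ± 1.83 (SD, n = 4) (log2 fold change 0.31). *Csf1r*, the receptor for the growth factor that macrophages need to survive, was 6.47 ± 2.93 (SD, n = 5) against 5.95 ± 1.63 (SD, n = 4) (log2 fold change 0.056, 95% interval −0.59 to 0.70). *Mpeg1*, a pore-forming protein of macrophages, was the only one of the 7 with a lower mean on the apoC-III ASO (log2 fold change −0.12, 95% interval −0.56 to 0.32).

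**Figure D3:**
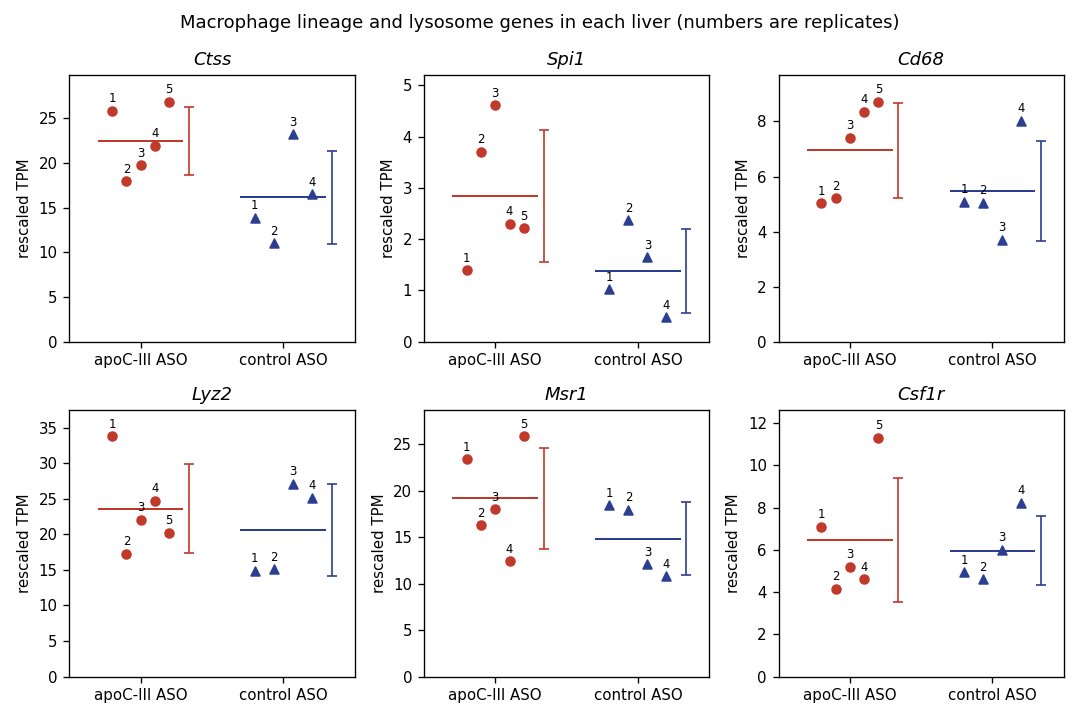
Rescaled TPM of 6 macrophage lineage and lysosome genes in each liver, with the replicate number above each point, a line at the group mean and a bar of 1 SD (n = 5 and n = 4). Means are higher on the apoC-III ASO in all 6 panels, and the groups overlap in each.

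The MHC class II genes had lower means on the apoC-III ASO in 4 of 4 cases, with a median log2 fold change of −0.33, and none passed the test. That median was −0.17 without apoC-III ASO replicate 2 and −0.14 without control ASO replicate 4. *H2-Ab1* (chr17:34257689-34269419, + strand), *H2-Aa* (chr17:34282744-34287823, − strand) and *H2-Eb1* (chr17:34305867-34316674, + strand) are neighbors on GRCm38 and encode MHC class II chains. *Cd74* encodes the invariant chain that guards the groove of MHC class II. MHC class II promoters carry a Y box, bound by NF-Y, close to the start site, and the letters CTGATTGG were searched in the 250 bases upstream of each RefSeq start (GRCm38.p6, both strands). They were present in 3.83% of 32851 promoters. Of 29 members matched to this table, *H2-Aa* and *H2-Eb1* held them, and neither *H2-Ab1* nor *Cd74* was matched. The 120 bases before both starts are shown because these neighboring members share the element, and its part in their levels was not tested. The Y box is in capitals, 51 to 44 bases upstream in *H2-Aa* (chr17:34287824-34287943, − strand) and 62 to 55 bases upstream in *H2-Eb1* (chr17:34305747-34305866, + strand).
H2-Aa: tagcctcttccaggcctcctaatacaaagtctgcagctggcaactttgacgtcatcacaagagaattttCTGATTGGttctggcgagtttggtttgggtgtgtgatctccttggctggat
H2-Eb1: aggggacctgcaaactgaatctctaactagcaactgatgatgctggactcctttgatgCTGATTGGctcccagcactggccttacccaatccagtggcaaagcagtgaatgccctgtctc

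*H2-Eb1* came nearest to a difference among the 4. It was at 11.3, 6.53, 5.42, 8.05 and 8.50 rescaled TPM on the apoC-III ASO and at 11.1, 10.04, 11.6 and 12.6 on the control ASO. The controls lay close together and apoC-III ASO replicate 1 was the only treated liver among them (log2 fold change −0.49, 95% interval −0.99 to 0.011, unadjusted p = 0.0544 and adjusted p = 0.878 in limma-trend, unadjusted exact permutation p = 0.0476). *Cd74*, the highest of all members, was at 85.0, 26.8, 33.9, 33.3 and 32.8 rescaled TPM on the apoC-III ASO and at 46.1, 32.0, 50.7 and 44.2 on the control ASO. ApoC-III ASO replicate 1 stood far above every other liver, and the remaining treated livers lay between 26.8 and 33.9, near the lowest control (log2 fold change −0.14, 95% interval −0.83 to 0.55, adjusted p = 0.983 in limma-trend). With a liver left out its log2 fold change ran from −0.42 (without apoC-III ASO replicate 1) to −0.015 (without apoC-III ASO replicate 2). *H2-Aa* was at 21.2, 8.92, 5.23, 14.1 and 31.8 rescaled TPM on the apoC-III ASO and at 11.2, 16.6, 17.2 and 30.1 on the control ASO, with its highest and its lowest value both on the apoC-III ASO (log2 fold change −0.35, 95% interval −1.33 to 0.64). Without apoC-III ASO replicate 3 the log2 fold change of *H2-Aa* was −0.037, and without apoC-III ASO replicate 5 it was −0.64. *H2-Ab1* was at 19.0, 6.68, 16.3, 12.8 and 8.99 rescaled TPM on the apoC-III ASO and at 11.6, 14.03, 15.1 and 21.4 on the control ASO (log2 fold change −0.32, 95% interval −0.99 to 0.35). Replicate 1 was the highest treated liver for 3 of these 4 genes.

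**Figure D4:**
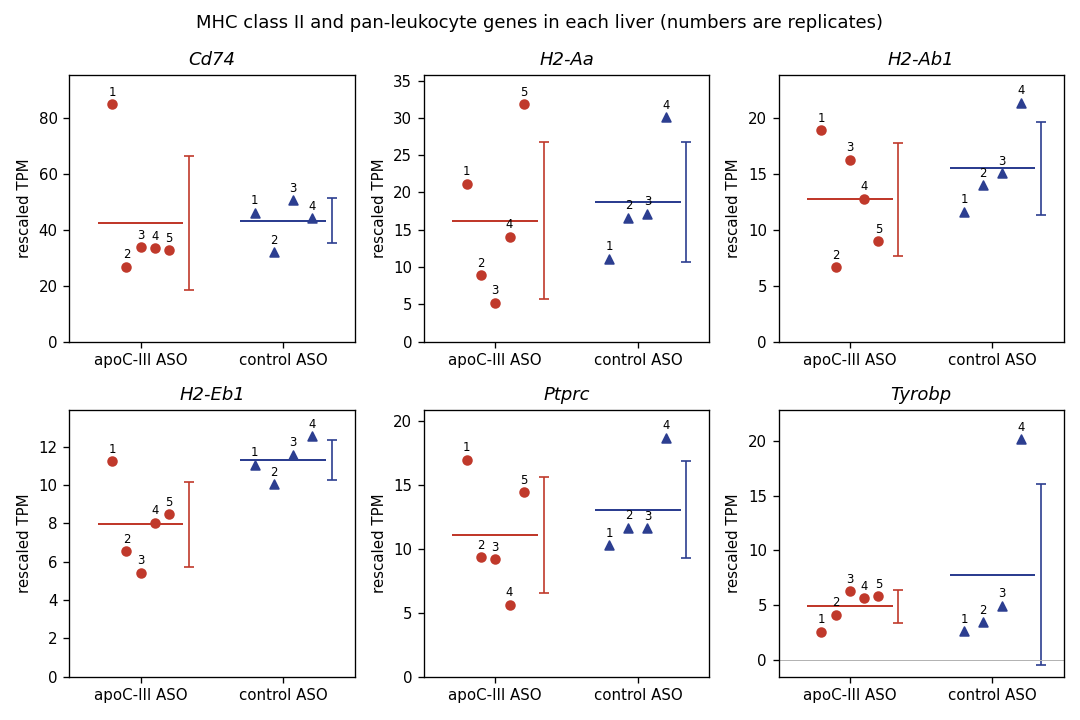
Rescaled TPM of *Cd74*, 3 MHC class II chains, *Ptprc* and *Tyrobp* in each liver, with the replicate number above each point, a line at the group mean and a bar of 1 SD (n = 5 and n = 4). ApoC-III ASO replicate 1 stands apart for *Cd74*, and control ASO replicate 4 for *Ptprc* and *Tyrobp*.

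Of the genes shared by most leukocytes, 1 of 4 was higher on the apoC-III ASO and none passed the test. *Ptprc*, the CD45 phosphatase on every white blood cell, had the largest difference of the class. It was at 17.0, 9.33, 9.20, 5.64 and 14.5 rescaled TPM on the apoC-III ASO and at 10.3, 11.7, 11.6 and 18.7 on the control ASO (log2 fold change −0.27, 95% interval −0.94 to 0.41, adjusted p = 0.949 in limma-trend). Control ASO replicate 4 and apoC-III ASO replicate 1 were the highest livers, and apoC-III ASO replicate 4 was the lowest. *Laptm5*, a lysosomal membrane protein of blood cells, was the most abundant of them at 26.4, 18.3, 25.8, 12.7 and 13.0 rescaled TPM on the apoC-III ASO and at 27.8, 13.4, 19.0 and 24.1 on the control ASO (log2 fold change −0.14). *Tyrobp* encodes DAP12, an adaptor for activating receptors of myeloid and NK cells. It was at 2.57, 4.12, 6.29, 5.62 and 5.82 rescaled TPM on the apoC-III ASO and at 2.62, 3.44, 4.94 and 20.1 on the control ASO, where replicate 4 stood above all other livers. With that liver the log2 fold change was −0.23, and without it 0.32. *Fcer1g*, the Fc receptor gamma chain, spread over an 8.24-fold range in which each group held high and low livers (log2 fold change 0.083, 95% interval −1.14 to 1.31).

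Livers also differed by transcript length. Against the rest of their group, transcripts under 1 kb had a median log2 difference of 0.47 in apoC-III ASO replicate 4, 0.29 in control ASO replicate 4, −0.28 in apoC-III ASO replicate 3 and −0.45 in apoC-III ASO replicate 2, and between −0.15 and 0.13 in the other livers. The summed level of 7 platelet and erythroid genes was 2239.5 rescaled TPM in control ASO replicate 4 and 968 in apoC-III ASO replicate 4, against 52.9 to 208 in the others. The part of blood cells and of transcript length in the leukocyte values was not tested.

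Receptors for microbial products were low. *Tlr4*, the lipopolysaccharide receptor, was at 2.58, 0.692, 1.38, 2.24 and 0.837 rescaled TPM on the apoC-III ASO and at 2.16, 1.92, 1.30 and 0.855 on the control ASO (log2 fold change −0.041, 95% interval −0.72 to 0.63). *Cd14*, its coreceptor, was 0.537 ± 0.316 (SD, n = 5) against 1.12 ± 0.541 (SD, n = 4), was listed at 0 in apoC-III ASO replicate 3 and was not tested. *Tlr9* binds unmethylated CpG DNA inside endosomes. It did not exceed 0.142 in any liver and was listed at 0 in control ASO replicate 4. With a mean under 1 it was not tested.

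Monocyte genes were low and uneven. *Ly6c2*, the surface marker of inflammatory monocytes, was at 4.78, 0.105, 2.95, 0.153 and 4.82 rescaled TPM on the apoC-III ASO and at 1.79, 1.25, 2.10 and 4.66 on the control ASO. The controls lay within the range of the treated livers, 2 of which were far below every control (log2 fold change −0.21, 95% interval −1.43 to 1.002, adjusted p = 0.988 in limma-trend). *Itgam*, the CD11b integrin of myeloid cells, was at 0.697, 0.954, 2.51, 0.331 and 0.0844 rescaled TPM on the apoC-III ASO and at 2.31, 0.920, 1.34 and 1.28 on the control ASO (log2 fold change −0.46, 95% interval −1.23 to 0.32). A second row with its symbol belongs to the overlapping gene *Gm49368* and was kept apart, and reads of the pair may be split between them. *Ccr2*, the receptor that draws monocytes into tissue, *Cx3cr1*, the fractalkine receptor, and *Itgax*, the CD11c integrin of dendritic cells, each averaged under 1 and were not tested. Their highest values over 9 livers were 2.89, 1.37 and 1.78 rescaled TPM.

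The neutrophil pair was low or at 0. *S100a8* and *S100a9* encode the subunits of calprotectin, an abundant neutrophil protein, and *S100a8* was listed at 0 in all 9 livers. *S100a9* was at 0, 1.51, 1.94, 1.24 and 0 rescaled TPM on the apoC-III ASO and at 4.47, 2.80, 0 and 4.38 on the control ASO, with zeros in both groups (log2 fold change −0.89, 95% interval −2.07 to 0.29, adjusted p = 0.901 in limma-trend). Of 10 further neutrophil genes, 5 were listed at 0 in every liver (*Ly6g*, *Mpo*, *Elane*, *Ngp* and *Mmp8*), while *Csf3r*, the receptor for the growth factor of granulocytes, and *Cxcr2*, a chemokine receptor, were above 0 in all 9. *Csf3r* ran from 0.919 to 2.63 rescaled TPM and *Cxcr2* from 0.262 to 1.23.

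Macrophages that gather lipid express *Trem2*, a lipid-sensing receptor, and *Gpnmb*, a lysosomal glycoprotein. Both averaged under 1 and were not tested. *Trem2* was at 1.13, 0.0563, 0.447, 0.807 and 0 rescaled TPM on the apoC-III ASO and at 1.94, 2.98, 0.942 and 0.124 on the control ASO, where 3 livers exceeded 4 of the 5 treated livers. *Gpnmb* was at 0.914, 0.731, 0.939, 0.322 and 0.576 rescaled TPM on the apoC-III ASO and at 0.610, 0.677, 0.946 and 0.578 on the control ASO. Its group ranges overlapped.

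Lymphocyte genes were low as well. *Cd3e*, a chain of the T cell receptor complex, was at 0.817, 0.652, 1.46, 0 and 2.42 rescaled TPM on the apoC-III ASO and at 0, 0, 0 and 0.305 on the control ASO. It was listed at 0 in 3 of the 4 controls and in 1 of the 5 treated livers, while *Cd8a*, the coreceptor of cytotoxic T cells, was at 0.966, 0.557, 0.231, 1.19 and 1.11 on the apoC-III ASO and at 0.593, 0.660, 0.640 and 0.489 on the control ASO. *Cd8a* was above 0 in all 4 livers where *Cd3e* was listed at 0. Neither gene was tested, as both averaged under 1. *Nkg7*, a granule protein of NK and cytotoxic T cells, and *Cd79a*, a chain of the B cell receptor, did not exceed 1.52 and 0.965 in any liver.

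**Figure D5:**
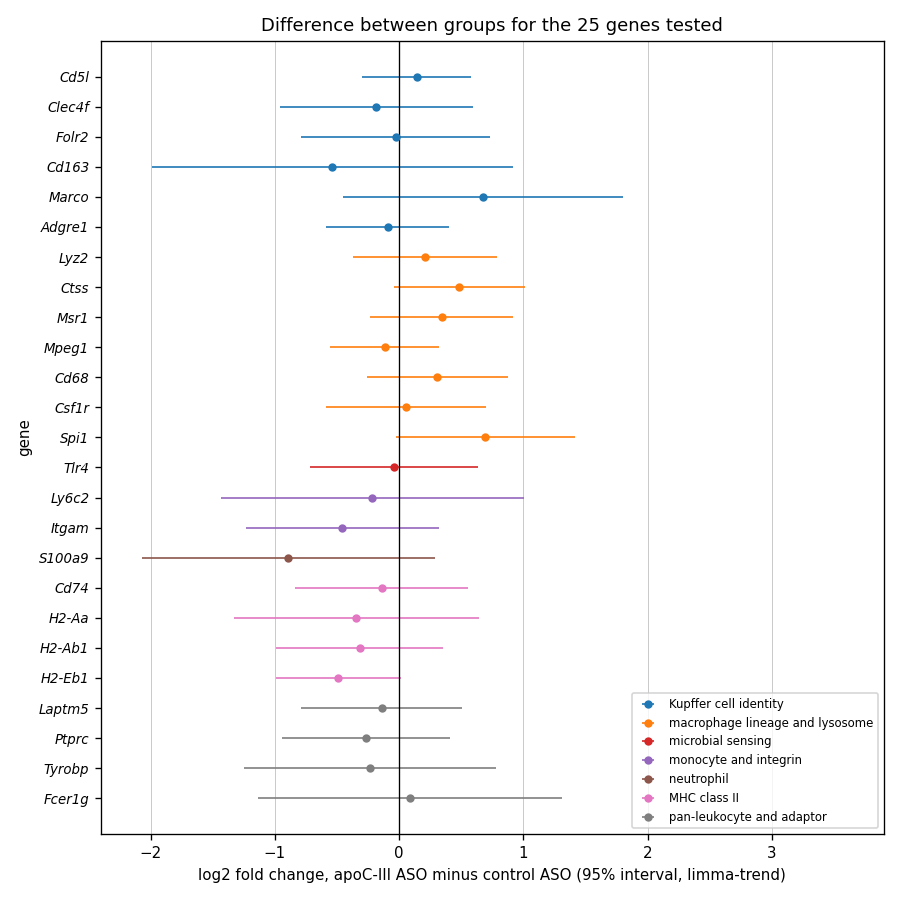
Log2 fold change, apoC-III ASO minus control ASO, of the 25 tested genes with 95% intervals from limma-trend, colored by cell class. All intervals cross 0, and those of *Cd163*, *Ly6c2*, *S100a9* and *Fcer1g* are among the widest.

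Another 93 genes of the same cells and pathways were read in the same fit. Of these, 51 were tested, 25 with a higher and 26 with a lower mean on the apoC-III ASO, none was called and 3 fell under an unadjusted p of 0.05, which is 5.88% beside the 5.56% of all genes. *Id3* encodes a repressor of transcription factors that Kupffer cells require and that other liver cells also express. It was at 42.9, 36.9, 40.6, 14.7 and 17.7 rescaled TPM on the apoC-III ASO and at 12.8, 14.1, 10.7 and 8.28 on the control ASO, without overlap, as was found for 1.84% of all genes (log2 fold change 1.24, 95% interval 0.49 to 1.98, adjusted p = 0.774 in limma-trend). The study printed it among genes selected on these same livers with DESeq2 at an adjusted p under 0.05, so its direction is not independent evidence. The fit here used rescaled TPM and limma-trend instead and did not call *Id3*. *Slc40a1*, the iron exporter ferroportin of macrophages and hepatocytes, was 278 ± 74.5 (SD, n = 5) against 173 ± 82.5 (SD, n = 4) (log2 fold change 0.75, adjusted p = 0.878 in limma-trend). *Fabp5*, a fatty acid carrier counted here with the lipid-associated macrophage genes, was 11.2 ± 3.59 (SD, n = 5) against 24.0 ± 7.64 (SD, n = 4), again without overlap (log2 fold change −1.05, adjusted p = 0.859 in limma-trend).

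By list, 6 of 12 tested further Kupffer cell genes had a higher mean on the apoC-III ASO. So did 3 of 6 of the MHC class II pathway and 8 of 11 of TLR signalling and cytokines. The same was true of 3 of 4 monocyte and dendritic cell genes, 3 of 10 lipid-associated macrophage genes, 1 of 4 B and plasma cell genes, 1 of 2 T and NK cell genes and 0 of 2 neutrophil genes. The lipid-associated list includes *Apoe*, inactivated in these mice. Its remaining transcript was 36.1 ± 11.0 (SD, n = 5) against 50.8 ± 19.4 (SD, n = 4) rescaled TPM and counted as lower. Whole livers were measured, so the count for this list cannot be assigned to macrophages.

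Markers of other liver cells were read beside them. Hepatocyte genes had a lower mean on the apoC-III ASO in 8 of 10 cases and summed to 29110.5 to 60154 rescaled TPM there, against 40445 to 54239 on the control ASO. Stellate cell genes were lower in 8 of 10, with sums of 245 to 353 against 305 to 516. An unadjusted limma-trend p under 0.05 was found for *Serpina1c*, an alpha-1-antitrypsin gene of hepatocytes (log2 fold change −0.82, adjusted p = 0.866), and for the stellate cell genes *Lrat*, an enzyme of vitamin A storage (log2 fold change −0.89, adjusted p = 0.850), and *Dcn*, a matrix proteoglycan (log2 fold change −0.57, adjusted p = 0.878). These were 1 of 10 hepatocyte and 2 of 10 stellate cell genes tested, beside 5.56% of all genes, and none was called. No tested endothelial, cholangiocyte, platelet or erythroid marker fell under that p. The groups did not overlap for *Lrat*, as was found for 1.84% of all genes. *Lrat* and *Serpina1c* were also among the genes that the study printed. Genes of the sinusoidal endothelium, which lines the vessels that hold Kupffer cells, were higher in 6 of 10, with sums of 175 to 430.2 against 207 to 353. Cholangiocyte genes were higher in 1 of 6 tested, with sums of 201 to 398 against 226 to 315. Those sums were carried by *Krt18*, *Krt8* and *Spp1*, with means over all livers of 110.5, 84.8 and 65.8. Among the rest of that list the highest mean was 1.93, for *Sox9*, and *Krt19* averaged 1.55. The summed 7 Kupffer cell members ran from 68.0 to 103 rescaled TPM on the apoC-III ASO and from 63.9 to 119.98 on the control ASO, the control range enclosing the treated one. The part of cell composition in any of these values was not tested.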

How the data were processed

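Ribosome-depleted, stranded libraries had been sequenced single-end. Per gene, the authors deposited TPM, and the submitters' processing notes name kallisto 0.43.1 and GRCm38, whereas the study's methods describe alignment with STAR, counting with featureCounts and DESeq2. Which of these made the deposited TPM is not given in the sources used here. Genes were matched by identifier to GENCODE M21. Values of nuclear protein-coding genes were set to a total of 1000000 in each liver, then divided by median-of-ratios factors. Genes with a mean of at least 1 were tested on log2(value + 1) with limma 3.58.1 (lmFit, eBayes with trend) in R 4.3.3, with Benjamini-Hochberg adjustment and no covariate. Fold changes are on that scale and understate the change of low genes. In eBayes the variance of each gene was drawn toward a trend fitted over all genes tested. Exact permutation tests were two-sided. Tables and plots used Python 3.11.15, pandas 2.3.3, scipy 1.17.1 and matplotlib 3.10.9. The code was tested on simulated data.

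The members, lists, tests and alternatives were chosen with earlier results of these data known. Values per liver are given for the member of each class with the highest mean, for that with the largest difference, and for further members whose livers spread widely. From the further lists, genes with an unadjusted p under 0.05 are named, and some others beside the members they relate to. The 19 alternatives were TPM as deposited, with and without factors, protein-coding rescaling without factors, a pseudocount of 0.1, no filter, a minimum mean of 5, eBayes without trend, array weights, a replicate block, each liver left out, and an exact permutation test. *S100a8* had no variance and was not tested under any of them. *Ighm* and *Igkc* carry no protein-coding biotype and have no rescaled value.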

Additional observations from a re-analysis of the deposited data

Results flagged for a closer look

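In 11 of 76 groups of livers the highest or lowest value of a member stood apart from the rest of its group by Dixon's criterion. About 5% of groups would meet it if the values were normally distributed. The criterion was applied to rescaled TPM without logarithms, many of them near 0, and no rate over all genes is given here. The 11 can therefore not be read as an excess. Control ASO replicate 4 held 6 of the 11. It was the highest control for *Ptprc* (18.7 rescaled TPM), *Tyrobp* (20.1), *Ccr2* (2.89), *Itgax* (1.78), *Nkg7* (1.52) and *Cd3e* (0.305, with the other 3 controls listed at 0). That liver had the smallest protein-coding share (1.94%), the lowest scaling factor (0.497) and the lowest array weight (0.349). In TPM as deposited it was the lowest control for *Ptprc* (0.181), *Tyrobp* (0.194) and *Nkg7* (0.0146), but not for *Ccr2*, *Itgax* or *Cd3e*. Control ASO replicate 3 stood apart for *Marco* at 9.59, with the other controls between 0.841 and 1.87. Among treated livers, apoC-III ASO replicate 5 stood apart for *Cd163* at 23.1, with the others between 0.531 and 5.72. ApoC-III ASO replicate 1 stood apart for *Cd74* at 85.0, with the others between 26.8 and 33.9, and for *Cd79a* at 0.867. *Cd14* was listed at 0 in apoC-III ASO replicate 3, with the other treated livers between 0.597 and 0.837.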

How the results depend on the processing

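No member was called under any of the 19 alternatives. Among all genes, calls numbered 2 on the main scale, 11 in TPM as deposited (4936 genes and 6 members tested), 1 without median-of-ratios factors, 1 without a filter, 1 with eBayes without trend, 0 by the exact permutation test and 1 to 3 with a liver left out. Members at an unadjusted p under 0.05 numbered 0 on the main scale, 3 without factors (*Spi1*, *Cd68* and *Ctss*), 1 without a filter (*Cd3e*), 1 with eBayes without trend (*Spi1*), 1 with array weights (*H2-Eb1*) and 1 by the exact permutation test (*H2-Eb1*). With a liver left out they numbered 0 to 3: *Spi1* and *H2-Eb1* without apoC-III ASO replicate 1, *Cd163* without apoC-III ASO replicate 5, *Spi1* without control ASO replicate 2, *Marco*, *Ctss* and *S100a9* without control ASO replicate 3, and *Trem2* without control ASO replicate 4. Of all genes tested, 11.0% were under that p without factors, 5.50% without a filter and 5.59% with eBayes without trend. The share was 7.48% with array weights, 5.20% by the exact permutation test and 4.15% to 7.04% with a liver left out.

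Of 402 log2 fold changes of members under the alternatives, taken relative to the all-gene median where it moved by over 0.1, 374 kept their direction, and 17 of 25 members never reversed. As fitted, without taking off that median, 22 of 27 tested members were higher without factors (median 0.41) and 5 of 6 in TPM as deposited (median 0.11), against 9 of 25 on the main scale. With array weights *Folr2* reversed to 0.11 and *Tyrobp* to 0.10. With a liver left out the range crossed 0 for *Clec4f* (−0.49 to 0.030), *Folr2* (−0.25 to 0.18), *Csf1r* (−0.14 to 0.20), *Tlr4* (−0.19 to 0.091), *Ly6c2* (−0.48 to 0.12), *Laptm5* (−0.33 to 0.00089), *Tyrobp* (−0.53 to 0.32) and *Fcer1g* (−0.27 to 0.48). Replicate numbers did not pair the livers: same-numbered livers correlated at 0.0658, 0.122, 0.0264 and 0.191, and only number 4 matched its own number best. The replicate block, in which apoC-III ASO replicate 5 has no partner and drops out, gave 3 called genes. It put 2 members under an unadjusted p of 0.05 (*Spi1* and *Cd163*), against 7.82% of all genes. It reversed *Folr2* (0.087), *Csf1r* (−0.14), *Tlr4* (0.061) and *Fcer1g* (−0.27). The causes were not tested. Unknown depth limits what can be said of the 13 members under the minimum.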

Other observations

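Some further genes of these cell types, chosen after their values were seen, varied widely between livers. *Pax5*, a transcription factor of B cells, was at 1.29, 1.10, 2.33, 0 and 0.0459 rescaled TPM on the apoC-III ASO and at 21.3, 0.869, 1.05 and 0 on the control ASO. *Ltf*, the gene of the neutrophil granule protein lactoferrin, was at 0, 0.101, 0, 0 and 0 on the apoC-III ASO and at 0, 10.6, 0.785 and 0 on the control ASO. The complement genes *C1qa*, *C1qb* and *C1qc*, which Kupffer cells express strongly, had log2 fold changes of 0.46, 0.14 and 0.38 with unadjusted limma-trend p-values of 0.0638, 0.541 and 0.176.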
